A study of Mus musculus with 1 sample.

Results

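Transcription factors that build organs in the embryo, other than the HOX genes, were read in the mouse macrophage line RAW264.7. The members were the genes whose symbol in the array's annotation belongs to the Sox, Fox, Pax, Tbx, Lhx, Gata, sine oculis (Six2 to Six6), Dlx, Nkx, Pou, Neurod or Neurog families, chosen by symbol alone and not by signal. They came to 134 genes with 141 probes, of 19321 named genes with 20690 probes on the array. RefSeq lists 147 protein-coding genes under the same rule, and the other 13 were not analysed here.

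The study looked for genes that let macrophages take up peroxiredoxin, a peroxide-reducing enzyme, by setting parental cells against lines mutated with ENU, an alkylating mutagen, that had lost the uptake. Signals come from a single array in 1 colour, hybridised with RNA of parental RAW264.7 cells that were grown in RPMI-1640 with 10% fetal calf serum and were not mutagenised. RAW264.7 is a male mouse line transformed by a leukaemia virus that grows without limit and keeps many traits of a macrophage. Mutant arrays were not analysed here, there are no replicates, and no p-value is given. With 1 array, how far a value would move in another culture is unknown.

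Members of each family share a DNA-binding domain: the HMG box of Sox proteins, the forkhead of Fox proteins, the paired domain of Pax, the T-box of Tbx, the zinc fingers of Gata, the homeodomains of Lhx, Dlx, Nkx, Pou and sine oculis (Six2 to Six6) proteins, and the basic helix-loop-helix of Neurod and Neurog proteins. In the embryo most of them are switched on in a few tissues and set cell fate there, and many stay shut in other lineages. Some serve blood cells, such as Gata1 in red cells, Pax5 in B cells, Tbx21 and Foxp3 in T cells, while Foxo and Foxk factors are found in most cell types.

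Signal is the median pixel intensity of a spot in the red (Cy5) channel, in arbitrary units, with no background subtracted, and a gene takes the value of its highest probe. A gene was counted as giving signal where it exceeded 22.98, called the blank limit. That is the mean plus 2 SD of the empty spots, after 5% were left out at each end. A stricter limit, 55.8, is the 95th percentile of the 1224 probes of odour, pheromone and taste receptors, and is called the receptor limit. Those receptors are made in sensory cells, yet 451 of their 1213 genes, or 37.2%, also exceeded the blank limit, and 62, or 5.11%, the receptor limit. A signal over the blank limit alone therefore does not show that a gene is expressed. Because signal also depends on the probe, each gene is read against these limits and not against other genes. For bright spots the error is known from 2 positive controls, each spotted 24 times, read 12934 ± 645 and 29507 ± 1585 (SD over spots), or coefficients of variation of 4.98% and 5.37%. These lie far above the signals of the members. At low signal the blanks kept after that trimming had an SD of 1.18, which does not cover the tails left out. A probe spotted in 2 places read 57.1 and 57.9. Set against the label of the cells, all 16 measured genes of macrophage identity lay over both limits, among them Spi1 at 858, Csf1r at 642 and Adgre1 at 205.

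Few of the developmental factors gave clear signal. Over the blank limit lay 82 of 134 genes, or 61.2% (exact Clopper-Pearson 95% interval 52.4 to 69.5), beside 72.8% of all named genes. Over the receptor limit lay 22 of 134, or 16.4% (10.6 to 23.8), beside 42.8% of all named genes. By probe the shares were 85 of 141 (60.3%, beside 72% of named probes) and 22 of 141 (15.6%, beside 41.3%). A further 60 genes lay between the limits and 52 were under the lower one; 36 genes were within 10% of the blank limit, 14 above and 22 below it. The median signal was 25.4 in the members and 40.1 over all named genes, and 2.99% of members against 20.9% of all named genes stood over 10 times the blank limit. The intervals treat genes as draws and cover no difference between arrays.

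Other groups of transcription factors on the same array gave a scale for these shares. Of 37 HOX genes, which pattern the body axis, 23 exceeded the lower limit and 9 the higher, or 24.3% (11.8 to 41.2), with a median of 25.6. Of 59 ETS, IRF, STAT, RUNX, CEBP and KLF factors, the groups that hold many regulators of blood cells, 54 exceeded the lower limit and 31 the higher, or 52.5% (39.1 to 65.7), with a median of 65.6. The interval of the developmental factors overlapped that of the HOX genes and lay under that of the blood-related groups. With 1 array no test of these differences was made.

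**Figure D1:**
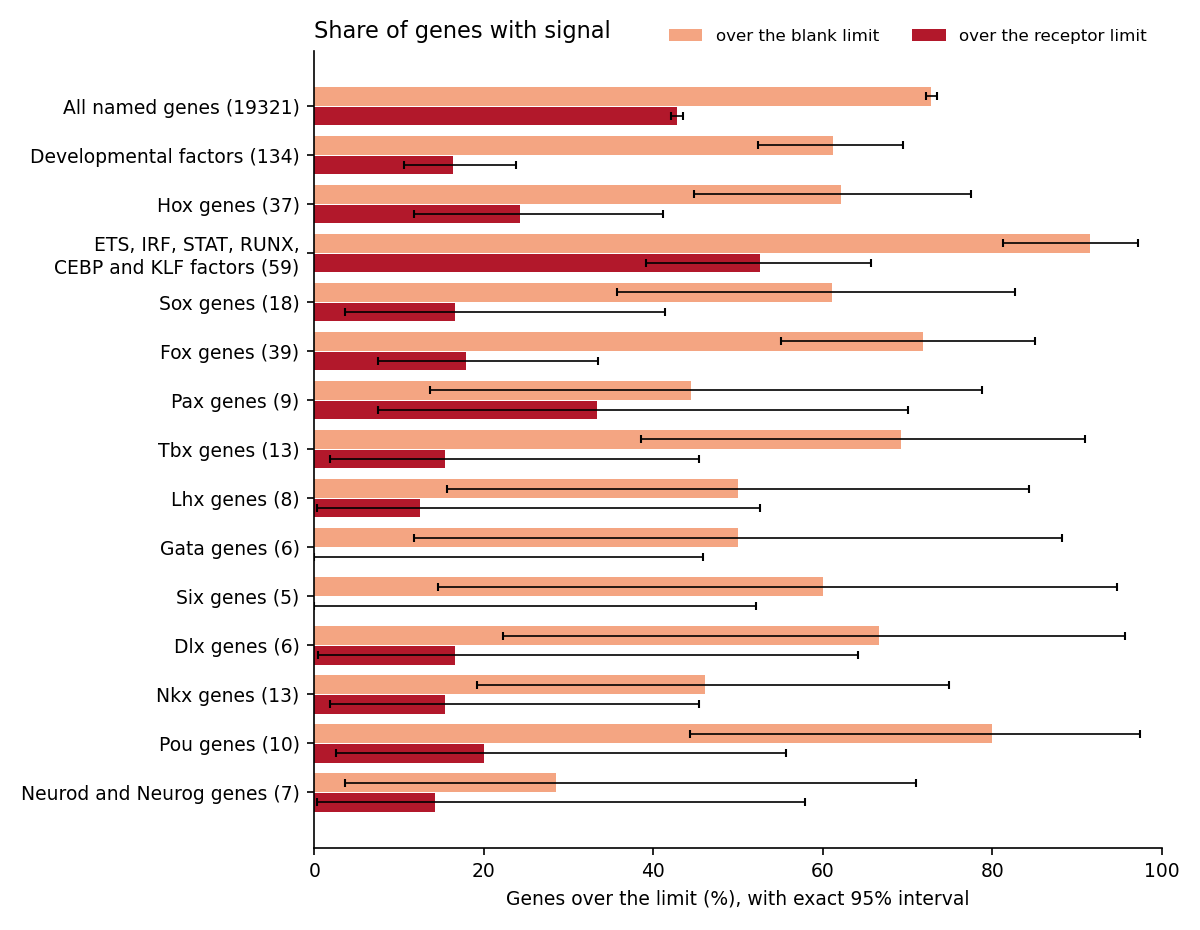
Bars give the percent of genes with signal above the blanks (light) and above the receptors (dark) for all named genes, the developmental factors, 2 comparison groups and each factor family, with the number of genes in brackets and exact 95% intervals as lines. At the receptor limit the developmental factors stood at 16.4%, all named genes at 42.8%, and the ETS to KLF groups at 52.5%.

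The members that stood 8.93 times the blank limit or more were Pax9, Tbx21, Foxp3, Lhx6, Foxo3, Pou4f1 and Sox13. Their promoters are printed to show how unlike each other the start regions of these 7 genes are, from A- and T-rich to dense in CG pairs. Each line gives the 250 bases before the most upstream RefSeq start in mouse build GRCm38.p6, 5′ to 3′ on the strand of the gene, with every CG dinucleotide, the site of DNA methylation, in capitals.
Pax9: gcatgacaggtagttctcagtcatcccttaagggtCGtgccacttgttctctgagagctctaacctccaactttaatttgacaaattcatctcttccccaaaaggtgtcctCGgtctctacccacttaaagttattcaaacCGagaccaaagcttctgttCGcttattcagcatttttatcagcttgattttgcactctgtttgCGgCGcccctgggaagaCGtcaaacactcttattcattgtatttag
Tbx21: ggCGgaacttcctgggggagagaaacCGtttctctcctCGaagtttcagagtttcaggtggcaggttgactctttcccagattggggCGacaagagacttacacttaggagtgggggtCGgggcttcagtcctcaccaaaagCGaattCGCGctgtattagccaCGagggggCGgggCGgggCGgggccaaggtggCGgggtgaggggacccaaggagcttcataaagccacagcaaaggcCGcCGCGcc
Foxp3: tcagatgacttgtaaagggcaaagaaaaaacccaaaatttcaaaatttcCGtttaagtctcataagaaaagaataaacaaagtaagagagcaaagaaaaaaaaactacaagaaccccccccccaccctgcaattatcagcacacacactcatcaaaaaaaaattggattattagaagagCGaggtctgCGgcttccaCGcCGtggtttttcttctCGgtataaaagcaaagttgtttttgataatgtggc
Lhx6: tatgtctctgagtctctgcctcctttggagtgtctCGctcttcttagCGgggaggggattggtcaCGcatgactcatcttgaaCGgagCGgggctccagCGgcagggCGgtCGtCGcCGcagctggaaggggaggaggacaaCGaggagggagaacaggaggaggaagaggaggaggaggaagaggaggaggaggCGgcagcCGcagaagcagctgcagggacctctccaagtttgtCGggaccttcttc
Foxo3: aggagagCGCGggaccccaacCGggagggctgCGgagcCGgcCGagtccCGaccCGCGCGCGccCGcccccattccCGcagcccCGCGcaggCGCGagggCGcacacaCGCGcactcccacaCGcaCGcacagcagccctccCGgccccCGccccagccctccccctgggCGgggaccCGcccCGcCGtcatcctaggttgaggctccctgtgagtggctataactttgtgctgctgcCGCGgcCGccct
Pou4f1: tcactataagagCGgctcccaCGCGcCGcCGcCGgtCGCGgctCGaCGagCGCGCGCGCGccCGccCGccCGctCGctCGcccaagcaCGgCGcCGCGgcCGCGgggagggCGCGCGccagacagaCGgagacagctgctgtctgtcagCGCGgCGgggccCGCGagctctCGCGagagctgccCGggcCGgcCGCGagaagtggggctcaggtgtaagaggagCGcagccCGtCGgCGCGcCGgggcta
Sox13: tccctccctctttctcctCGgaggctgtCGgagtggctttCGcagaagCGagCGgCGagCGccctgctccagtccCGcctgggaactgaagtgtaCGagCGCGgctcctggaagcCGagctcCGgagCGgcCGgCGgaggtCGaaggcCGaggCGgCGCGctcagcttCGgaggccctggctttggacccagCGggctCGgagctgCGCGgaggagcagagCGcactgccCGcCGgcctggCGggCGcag

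These windows lie at chr12:56695221-56695470 on the plus strand for Pax9, chr11:97115332-97115581 on the minus strand for Tbx21, chrX:7579426-7579675 on the plus strand for Foxp3, chr2:36105409-36105658 on the minus strand for Lhx6, chr10:42276696-42276945 on the minus strand for Foxo3, chr14:104468000-104468249 on the minus strand for Pou4f1 and chr1:133424213-133424462 on the minus strand for Sox13. Pou4f1 had 47 CG pairs and a GC content of 78%. Foxp3 had 6 CG pairs and a GC content of 37.6%, and Pax9 had 7 and 43.6%. Over the 21 members above the receptor limit with a promoter in the RefSeq table, the median was 16 CG pairs in 250 bases. It was also 16 over all named genes above that limit, 11 over all 15111 named genes with a promoter, and 6 over all 27018 promoters of the table. Over all 96 members with a promoter there, whatever their signal, it was 15. Members on either side of the limits were not compared, because 96 of 134 had a promoter there, or 71.6%.

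Forkhead genes were the largest family, with 39 members, 28 of them with signal above the blanks and 7 over the receptor limit, or 17.9% (7.54 to 33.5). At the blank limit every family interval covered the 72.8% of all named genes, except that of Neurod and Neurog (3.67 to 70.96). At the receptor limit the intervals of Fox and of Sox (3.58 to 41.4) lay under the 42.8% of all named genes. Those of the other families covered it. Foxo factors, which insulin and growth factor signals keep out of the nucleus through the kinase AKT, were over the receptor limit for 2 of 4 genes. Foxo3 (probe M400013007) read 220.6, or 9.60 times the blank limit, while its other probe (M200008017) read 31.0; the brighter probe is annotated to a predicted transcript and the dimmer one to a curated one. Foxo1 (probe M200006713), a partner in the same pathway, read 58.4, Foxo6 read 36.1, between the limits, and Foxo4 gave 20.4, below both.

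Of the 7 members with several probes, 5 had probes on different sides of a limit: Foxo3, Foxp3, Foxn3, Pou3f2 and Tbx20. Foxp3, which directs regulatory T cells, gave opposite readings on its 2 probes. Probe M200007307 read 350.2, or 15.2 times the blank limit, and stood 7.25 times over its local background of 48.3. Probe M200012074, annotated to the same transcript, gave 22.6, under the level of the blanks plus 2 SD. No fold between the probes is given, since the dimmer one was not above the blanks. In RefSeq the span of Foxp3 overlaps that of its neighbour Ccdc22, and whether the brighter probe reads Foxp3 was not tested. Its relatives did not reach the receptor limit: Foxp1, a regulator of monocyte maturation, read 37.0, Foxp2 read 22.7 and 18.6 on its probes, and Foxp4 read 20.9.

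Of the remaining forkhead genes over the receptor limit, Foxk2 (probe M400002241), a widely expressed repressor of autophagy and metabolic genes, read 186.8 over a local background of 127. Its paralog Foxk1 read 24.5. Foxj3 (probe M300008547) read 72.7, Foxe1, a thyroid factor, read 61.4, and Foxn3, linked to cell-cycle checkpoints, read 68.9 on one probe and 31.5 on the other. Of the Foxn3 probes too, the brighter is annotated to a predicted transcript and the dimmer to a curated one. Foxj3, Foxe1 and Foxn3 lay close to the receptor limit, with Foxk2 further above it. Between the limits, Foxi2 read 50.2, Foxj2 read 42.1 and Foxc2, of mesenchyme and lymph vessels, read 39.3. Foxj1, the master factor of motile cilia, read 26.4, Foxn2 read 26.1 and Foxa2, of endoderm, read 24.4. Foxi1, of the inner ear and kidney, read 17.4, the liver factor Foxa1 read 19.3 and Foxn4 read 19.99, all below both limits.

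**Figure D2:**
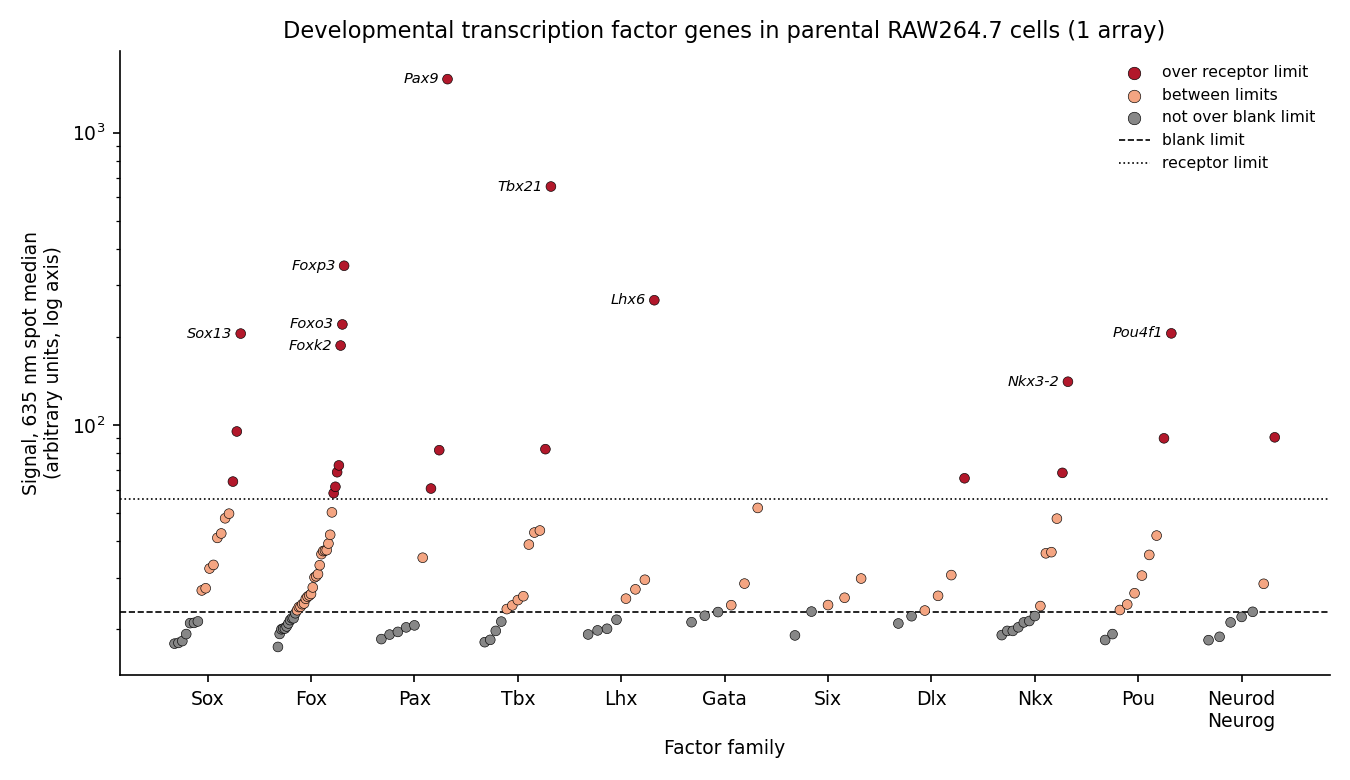
Each point is 1 gene, placed by its factor family and its signal (red-channel spot median of the highest probe, arbitrary units, log axis), in order of signal within a family; dashed and dotted lines mark the lower limit, 22.98, and the higher one, 55.8. Most points crowd around the dashed line, and 9 genes from Nkx3-2 at 140.5 to Pax9 at 1523 carry their names.

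Sox factors, relatives of the testis-determining factor that bend DNA, gave signal over the blank limit for 11 of 18 genes, 3 of which were over the higher limit too. Sox13 (probe M300001081), of the SoxD group that acts in cartilage, neurons and some T cells, read 205.3 and stood 6.09 times over its local background. That probe is annotated to a predicted transcript. Sox6 (probe M400003930), of the same group, read 94.9, and Sox5, the third of that group, gave 18.0, below both limits. Sox12 (probe M400003898), a SoxC factor, read 64.0, while Sox4, the SoxC factor of lymphoid and neural progenitors, gave 27.1 and Sox11 gave 17.8. All 3 SoxE factors, which direct cartilage, glia and testis, lay between the limits, with Sox10 at 49.7, Sox8 at 47.9 and Sox9 at 41.1. Sox21, of neural progenitors, read 42.5. Among SoxF factors of blood vessels, Sox7 read 27.6, whereas Sox18 (21.0) and Sox17 (18.2) stayed below both limits.

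Of 9 Pax genes, 4 gave signal over the blank limit and 3 of those were over the receptor limit. Pax9 (probe M300000199), needed for teeth, thymus and parts of the skeleton, read 1523, or 66.3 times the blank limit. Its local background was 1287, so that the spot stood 1.18 times over its surroundings, and an adjacent spot read 5819. Over the 595 named probes with a signal from 1000 to 2000, that ratio had a median of 4.49 and 2.69% of them were under 1.2. The part of the bright surroundings in the Pax9 reading was not tested. In RefSeq the span of Pax9 also overlaps that of Slc25a21, which read 44.0. Pax6, of eye, brain and islets, read 81.9 at 3.82 times its local background, and its span overlaps that of Elp4, which read 217. Pax2, of kidney and optic nerve, read 60.6 and Pax3, of neural crest and muscle, lay between the limits at 35.1. The Pax2 probe is annotated to a predicted transcript. The B cell factor Pax5 read 19.6, and Pax4, Pax1, Pax7 and Pax8 gave 18.5, 19.2, 20.3 and 20.6, all below both limits.

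Of 13 T-box genes, 9 gave signal over the blank limit, among them 2 over the receptor limit. Tbx21 (probe M200016120), known as T-bet, the factor of type 1 helper T cells and natural killer cells that is also made by some myeloid cells, read 653.7. That is 28.4 times the blank limit and 2.84 times its local background of 230. Tbx6, of early mesoderm, read 82.6, at 3.56 times its local background. Tbx2, Tbx4 and Tbx15, of limb, lung and skeleton, gave intermediate signals of 43.5, 42.8 and 38.9, and the heart and forelimb factor Tbx5 read 23.4. Tbx20, another heart factor, read 25.2 on one probe and 18.0 on the other. The pharyngeal factor Tbx1 read 18.4, Tbx18 read 18.1 and the pituitary factor Tbx19 read 19.7.

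Among Gata factors, which read the GATA motif in blood, endoderm and heart, none of 6 was over the receptor limit and 3 were over the blank limit. Gata1 (probe M200000519), of red cells, platelets and mast cells, read 52.0, or 2.26 times the blank limit. Gata6, of endoderm and heart and also of macrophages of the peritoneal cavity, read 28.6, and the T cell factor Gata3 read 24.2. Gata2, of blood stem cells and mast cells, read 22.9, just under the blank limit, and Gata4 and Gata5 read 22.2 and 21.1.

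Homeodomain families gave 1 or 2 genes over the receptor limit each, except the sine oculis family with none. Lhx6 (probe M300005371), of cortical interneurons and jaw, read 267.0, at 7.97 times its local background, while the 7 other Lhx genes gave 19.2 to 29.5. Among these, Lhx4, Lhx8 and Lhx2, of pituitary, forebrain and eye, read 29.5, 27.4 and 25.4, and Lhx3, Lhx5 and Lhx9 read 20.1, 19.8 and 19.2. Lhx6 was thus the one Lhx gene over the receptor limit. Pou4f1 (probe M300019159), of sensory neurons, read 205.6, at 4.79 times its local background. Pou2f2 (probe M300000968), or Oct-2, a factor of B cells that monocytes and macrophages also make, read 89.96. Pou5f1, the pluripotency factor Oct-4, gave 41.8, the neural factor Pou3f3 gave 35.9 and Pou4f3, of hair cells, gave 30.5, all between the limits. Pou3f2 read 24.3 and 22.4 on its probes, Pou6f1 gave 23.3, and Pou2f3 and Pou3f4 gave 19.2 and 18.4, below both limits. In all, 8 of 10 Pou genes had signal over the blank limit.

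Of 13 Nkx genes, 6 had signal over the blank limit. Nkx3-2, of cartilage and spleen, read 140.5 over a local background of 95.1. The heart factor Nkx2-5 read 68.5 over a local background of 18.5, and Nkx2-6, Nkx2-2 and Nkx2-3 stood at 47.8, 36.7 and 36.4, short of the receptor limit. The lung and thyroid factor Nkx2-1, Nkx2-4 and Nkx2-9 gave 19.7, 19.1 and 19.7, below both limits. Of 6 Dlx genes, which pattern forebrain and jaw, 4 had signal over the blank limit. Dlx1 read 65.7, over the receptor limit, and Dlx5, of bone and jaw, gave 30.6 and 23.0 on its probes. Dlx6 and Dlx2 gave 26.0 and 23.2, while Dlx4 (22.2) and Dlx3 (20.9) were below both limits. Of 5 sine oculis genes, of eye, muscle and kidney, Six6 read 29.8, Six5 read 25.6 and Six2 read 24.2. Six3 missed the limit at 0.9999 times, and Six4 read 19.0.

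Neurogenins and Neurod factors, which start the program of neurons and of islet cells, had signal over the blank limit for 2 of 7 genes. Neurog1 (probe M200014982), of sensory neurons, read 90.7, at 1.75 times its local background, and Neurod6 read 28.6. Neurod2, at 22.9, and Neurog3, at 22.03, fell just short of the blank limit, and Neurod4, Neurog2 and Neurod1 gave 21.1, 18.8 and 18.3.

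For some of these genes the surroundings of the spot were bright as well. Over the 22 member probes above the receptor limit, the median ratio of signal to local background was 2.35, against 2.94 over all 8541 named probes above that limit. It was under 1.5 for 3 of the 22, or 13.6%, namely Pax9, Foxk2 and Nkx3-2, beside 10.1% of all named probes above that limit. A spot over 10 times brighter adjoined 11 of the 22, or 50%, and 23.0% of all named probes above the limit. This share also depends on how bright the probe itself is. Of the 119 member probes not over the limit, 89, or 74.8%, had such a neighbour. The Foxo3 probe adjoined a spot of 21737. Each of the 22 exceeded the blank limit computed within its own block of the array. That outcome was fixed in advance, because the highest block limit, 24.3, lies under the receptor limit. How much light from adjacent spots adds to these readings was not tested.

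**Figure D3:**
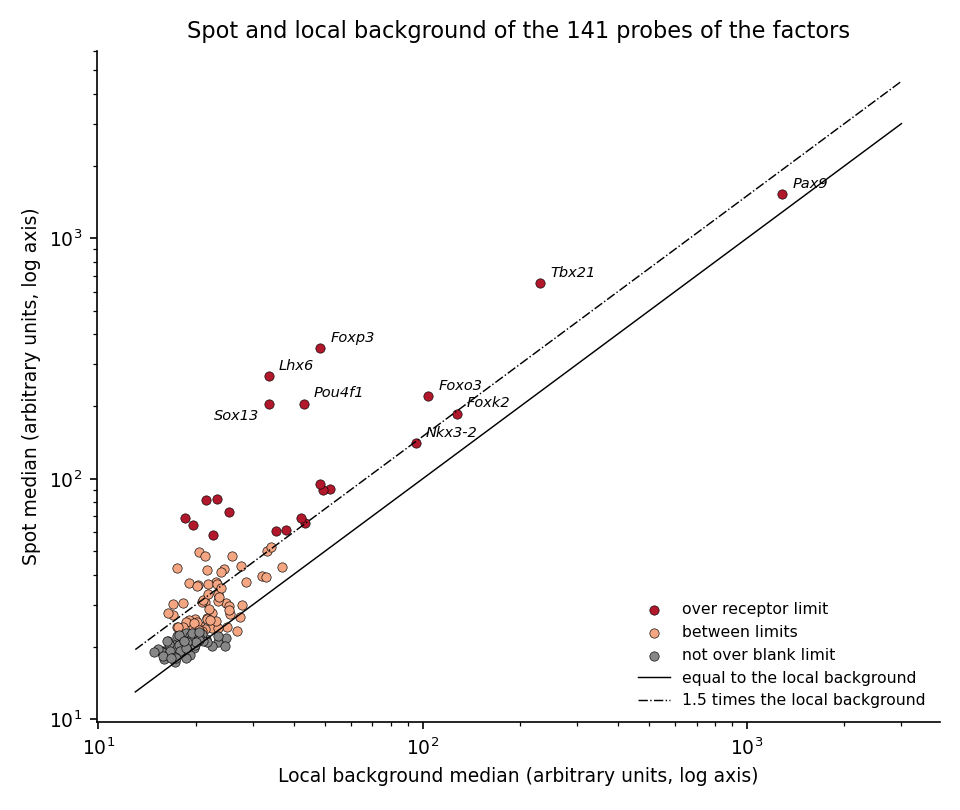
Each of the 141 probes of the factors is placed by its local background median and its spot median (both in arbitrary units, log axes), with lines at equality and at 1.5 times the background. Foxp3, Lhx6, Sox13 and Pou4f1 lie well over the upper line, whereas Pax9, Foxk2 and Nkx3-2 lie between the lines.

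The cofactors through which the factors act were read from a list of 57 genes, of which 52 had a named probe. Over the blank limit lay 42 of them, or 80.8% (67.5 to 90.4), an interval that covers the 72.8% of all named genes. Over the receptor limit lay 31, or 59.6% (45.1 to 73.0), an interval above the 42.8% of all named genes. The list was drawn up with earlier results of this array known, so this interval is no independent support for a difference. The median signal was 81.1. Of the single lists below, only the arm that controls Foxo proteins (66.4 to 100) had a receptor-limit interval that did not cover 42.8%. Of 7 partners of Gata proteins in blood, 4 were over the receptor limit, with the bridging factor Lmo2 at 995 and Lyl1 at 662, Tal1 at 186.8 and Ldb1 at 172.4, while Zfpm1, known as FOG-1, stood at 46.2 and Zfpm2 at 17.8. Of 8 partners of Lhx proteins, which share Ldb1 and Lmo2 with that list, 4 were over it, with Lmo4 at 468 and Lmo1 at 17.7. Of the 7 partners and inhibitors of Neurod proteins, 5 were over the receptor limit: the inhibitor Id3 read 1547, Id2 read 874 and the E protein Tcf12 read 314, whereas Tcf4 (21.0) and Id4 (21.5) gave no signal over the blanks. All 9 measured genes of the arm that controls Foxo proteins were over the receptor limit, from Sgk1 at 69.4 to Ywhae, a 14-3-3 protein that holds them in the cytoplasm, at 2191. One of the 9, the deacetylase Sirt1, read 177.5 on one probe and 22.2, under the blank limit, on the other. The corepressors Ctbp1 and Ctbp2, partners of Foxp proteins, read 811 and 620, 2 of the 4 Foxp partners of 7 over that limit. Of 8 Groucho and HDAC corepressors, which many of the factors recruit, 4 were over it, with Hdac2 at 892 and Tle6 at 19.7. Among the 6 partners of sine oculis proteins, Dach1 read 129 and the other 5, including Eya1 at 24.8 and Eya2 at 21.2, did not reach the receptor limit. Pou2af1, the B cell coactivator of Pou2f2, read 19.7, while the other two of that list, Nfyb and Hcfc1, gave 511 and 79.5.

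Genes known to act downstream of the factors were read from lists by lineage. With every list, 98 of 160 measured genes, of 179 listed, were over the blank limit, or 61.25% (53.2 to 68.8). Over the receptor limit were 36, or 22.5% (16.3 to 29.8). Beside these and the shares that follow, all named genes stood at 72.8% and 42.8%. Leaving out the lists of mitotic and Foxo genes and the factors themselves, 70 of 128 genes had signal over the blanks, or 54.7% (45.7 to 63.5), and 13 over the receptors, or 10.2% (5.52 to 16.7), with a median of 23.6. Of the lists left out, 13 of 13 mitotic and 10 of 18 Foxo genes were over the receptor limit. Their removal therefore lowers the share by construction. The lists were drawn up with earlier results of this array known. None of the 7 genes of red cells and platelets downstream of Gata1 was over the receptor limit: Alas2, for heme synthesis in red cells, read 49.2, Klf1 read 32.3 and Itga2b read 18.8. Of 9 genes of mast cells and type 2 T cells, known for Gata2 and Gata3, 1 was over it, the chemokine receptor Ccr4 at 2246, with Kit at 18.3. Of 9 genes of the regulatory T cell program, 1 was over it, Lrrc32 at 69.4, while the defining genes Il2ra and Ctla4 read 28.2 and 23.0. Of 8 genes downstream of Tbx21 and its relative Eomes, 1 was over it, the interleukin-18 receptor chain Il18rap at 150.6, with Ifng at 23.6 and Prf1 at 20.5. Of 8 B cell genes downstream of Pax5, 3 were over it, with the adaptor Blnk at 1276, Cd22 at 58.6 and Ebf1 at 56.4, just over the limit, while the lowest of the 3 Ebf1 probes gave 21.98, under the blank limit. Blk and Cr2 read 19.1 and 19.3.

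In lists of solid tissues few genes were over the receptor limit. No gene of 12 measured for pluripotency, 8 for cartilage, 7 for lung and thyroid or 10 for heart exceeded it, with Nanog at 22.8, Col2a1 at 37.9, Sftpc at 21.98 and Nppa at 27.0. Single genes exceeded it in other lists: Mitf, which macrophages and osteoclasts also use, at 1037 on one probe and 54.8, under the limit, on the other in the list of glia and melanocytes, G6pc at 79.3 in liver, Sst at 78.4 in islets, Mip at 99.5 in lens and Hes6 at 329 in neurons. Of 9 genes of motile cilia, 2 did, the dynein chains Dnaic2 at 77.6 and Dnaic1 at 67.6. In 2 further lists more of the genes were over it. All 13 mitotic genes known to be driven by Foxm1 were, from Cdc25c at 136.0 to Cenpa at 4012. Of 18 genes known as Foxo targets 10 were, or 55.6% (30.8 to 78.5), an interval that covers the 42.8% of all named genes. Among them were Sod2 at 2699 and Txnip at 2022, while Il7r (19.4) and Sesn3 (20.4) stayed below both limits. Which factor drives these genes in the line was not tested, and Foxm1 itself was not analysed here.

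**Figure D4:**
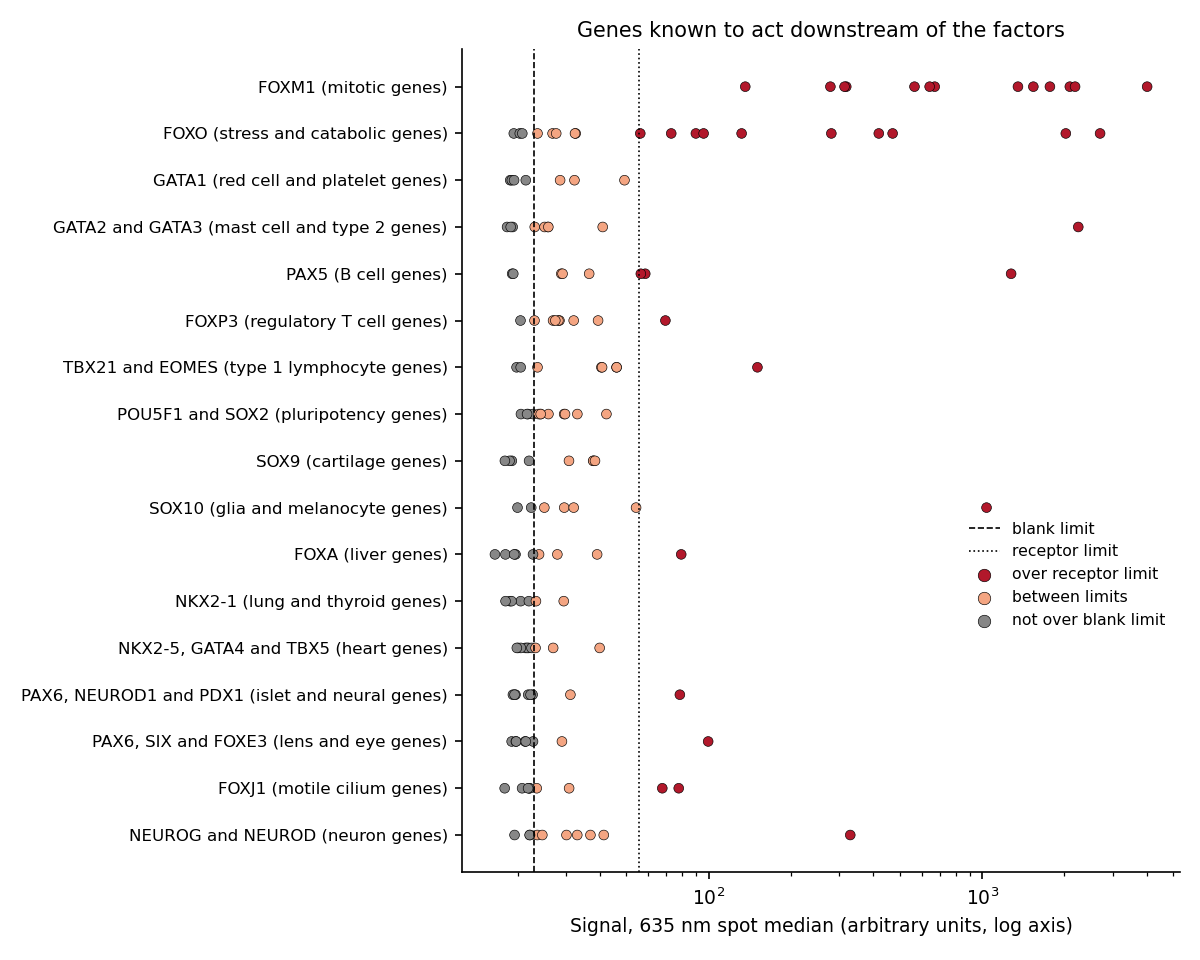
Each row is a list of genes known to act downstream of the factors it names, and each point is 1 gene at its signal (red-channel spot median, arbitrary units, log axis), with a dashed line for the lower limit and a dotted line for the higher one. The mitotic list lies wholly over the dotted line, from 136.0 to 4012, whereas the lists of red cells, pluripotency, cartilage, lung and thyroid, and heart have no point over it.

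The table of processed values that the authors deposited for the same array was read beside the scanner values. It held a value for 86 of the 141 member probes and an empty cell for 55, and 85 of the 86 were the probes over the blank limit; the other was Six3. Pax9 stood there at 730, Tbx21 at 308, Foxp3 at 160, Lhx6 at 120 and Foxo3 at 97. Where both sources gave a value, they ranked the member probes alike, with a Spearman's rho of 0.997 across 86 probes of 1 scan, which are not independent.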

How the data were processed

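RNA of 1 sample, parental RAW264.7 cells, was amplified, coupled to Cy5 and hybridised to a Toray array, per the labels' protocols. The authors deposited the scanner output, whose intensity values are, per the file headers, the median of each spot and of its local background from a scan at 3 gains, with no subtraction. A second deposited table holds processed intensity on a scale that is not stated. Its 16689 values (median 25) follow the spot median minus the blank mean, times 0.486 (SD 0.000364 over the 2987 probes with values over 200), and its 6784 empty cells are low probes; why that factor was used stays unknown. The scanner and its software are not named in the sources used here.

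The blank limit used 2464 of 2736 empty spots, after 5% were left out at each end (mean 20.6). Of 96 negative controls, 4 exceeded it. Symbols came from the platform's probe annotation; checked against RefSeq GRCm38.p6, 0 members had been renamed. The rule for the members used symbols alone, but the rule and the gene lists were set with earlier results of this array known. Named in the text are the members over the receptor limit, those whose probes disagreed, the 3 highest and 3 lowest others of each family, a set of well-known factors, and up to 2 genes from each end of a list. Foxo4, Foxo6, Foxp2, Foxp4, Sox7, Sox18, Tal1, Ldb1, Tcf12, Eya1, Sirt1, Il2ra, Ifng, Ebf1, Nanog, Sftpc and the macrophage genes were picked after their values were seen. Counts were made with Python 3.11.15, pandas 2.3.3 and SciPy 1.17.1, and normexp with limma 3.58.1. The limit function was tested on simulated data. The alternatives tried are given in the closing section.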

Additional observations from a re-analysis of the deposited data

How the results depend on the processing

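The share of developmental factors over the blank limit, 61.2%, stayed within its interval under 9 of 12 alternatives. It fell to 51.5% with the 99th percentile of the blanks and to 43.3% both with the local background subtracted and with normexp correction, where all named genes stood at 67.8%, 63.2% and 63.2%. The share over the receptor limit, 16.4%, stayed within its interval under 7 of 10 alternatives, among them 14.2% with a demand, chosen after seeing the data, for 1.5 times the local background. It stood at 24.6% with the 90th percentile of the receptor probes, at 5.97% with the 99th, and at 0% with the 95th percentile of the probes without a symbol, 2110, where all named genes stood at 49.6%, 27.6% and 3.36%. In both tallies updated symbols could not move the share, since 0 members were renamed. The authors' table holds a rescaled reading of the same scan, so neither setting speaks for stability. Normexp starts from the same spot signal minus local background and keeps its order, so the background corrections are not independent of each other. A higher limit leaves fewer genes over it by construction, whereas why both background corrections lower the share was not tested. Under these settings 54 members were over every blank limit tried and 44 over none. Tbx21, Lhx6, Pou4f1 and Sox13 passed 10 of the 11 receptor settings, the main one included, and failed at 2110. Foxp3, Foxo3 and Foxn3 also failed where all probes of a gene had to pass, and Foxo3 and Foxn3 with the first probe. Pax9, Foxk2 and Nkx3-2 failed at 1.5 times the local background. Dlx1, Foxe1, Pax2 and Foxn3 failed with both background corrections. Sox10, between the limits in the main setting, passed with both, as did Pax9, Foxk2 and Nkx3-2. Of the families, Fox fell to 46.2% and Tbx to 38.5% over the blank limit with both corrections, and the pluripotency list to 16.7%.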

Other observations

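Developmental factors often sit side by side in the genome, and 15 pairs of members are direct neighbours among the protein-coding genes of the RefSeq table. In 2 of these pairs 1 gene was over the receptor limit: Pax9, at 1523, beside Nkx2-9, at 19.7, and Dlx1, at 65.7, beside Dlx2, at 23.2. At the blank limit, 7 of the 15 pairs had both genes over it, 6 had 1 gene over it and 2 had neither. Among the pairs with both over it, Tbx2 and Tbx4 lay between the limits at 43.5 and 42.8, and Dlx5 and Dlx6 at 30.6 and 26.0. Among those with 1 gene over it, Nkx2-2 read 36.7 beside Nkx2-4 at 19.1. Beside these counts, 61.2% of all members were over the blank limit and 16.4% over the receptor limit. Some pairs share a gene, such as Nkx2-9 or Nkx2-2, and no count for random pairs was made.

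Short motifs were searched on both strands in the 250 bases before the start of the 21 members over the receptor limit that had a promoter in the RefSeq table; some motifs can share bases with others, and a match is a description and not a site. The TATA box core TATAAA occurred in Foxp3 and Tbx6, a share of 9.52%, against 6.85% of all named genes over the receptor limit and 12.98% of all 27018 promoters. The core of PU.1-type ETS sites, GAGGAA, occurred in Lhx6 and Pou2f2, again 9.52%, against 22.3% and 23.1%. The octamer ATGCAAAT read by Pou2 factors occurred in Sox12 and Neurog1, against 1.24% and 1.62%, and the forkhead core TGTTTAC in Sox12, against 2.09% and 3.06%. The GATA core AGATAA and the T-box core AGGTGTGA occurred in 0 of the 21, against 5.74% and 0.635% of named genes over the limit and 10.2% and 1.14% of all promoters. Over all 96 members with a promoter, whatever their signal, GAGGAA occurred in 10.4%, TATAAA in 5.21%, AGATAA in 7.29%, and the octamer and the forkhead core in 2.08% each. Over all 15111 named genes with a promoter, GAGGAA occurred in 22.5%, TATAAA in 11.3% and AGATAA in 8.70%. The octamer occurred there in 1.55%, the forkhead core in 2.67% and the T-box core in 1.03%. With 21 promoters, each count is 2 or fewer.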
